A study of Mus musculus with 6 samples.

Results

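The genes of fatty acid beta-oxidation were described in mouse bone marrow-derived macrophages that were left untreated or given oxidised low-density lipoprotein (oxLDL), the form of the particle known for turning macrophages into foam cells. The members were 31 named genes of 4 kinds: fatty acid activation, the carnitine shuttle, mitochondrial oxidation and peroxisomal oxidation. They were found by symbol in the deposited tables, and all 31 were among the 24054 genes listed and the 11400 that had enough counts to be tested. Macrophages were grown for 7 days from marrow of wild-type C57BL/6 mice in medium conditioned by L929 cells, and then received oxLDL at 50 µg/ml or no treatment for 24 hours. Each group had 3 samples, numbered 1, 2 and 3 in the titles, and poly(A) RNA was sequenced in bulk. The labels name neither the animals behind a number nor the meaning of the word mix in every title. P-values are therefore set against the spread among these 6 samples alone, and that spread may be technical in part.

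Beta-oxidation shortens fatty acids from the carboxyl end and passes the electrons to the respiratory chain or, in peroxisomes, to oxygen. A long-chain acid is first joined to coenzyme A by an acyl-CoA synthetase, then carried into mitochondria on carnitine, and then goes through repeated rounds of dehydrogenation, hydration, a further dehydrogenation and thiolysis. Very long and branched chains are shortened in peroxisomes. Many of these genes are known targets of the PPAR nuclear receptors, which bind fatty acids, and in macrophages the pathway is known as one outlet for the lipid that foam cells take up.

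The libraries held 13546572 to 15559310 expected counts each, and a member had between 90 and 11470 counts in any of them. The libraries numbered 3 stood apart. Untreated sample 3 correlated with untreated samples 1 and 2 at r = 0.889 and 0.897 across genes in log2 CPM (counts scaled to library size with TMM factors), while samples 1 and 2 correlated at 0.984; for the oxLDL group the values were 0.908, 0.922 and 0.983. Members whose call changes are therefore also given without pair 3, as are the counts of the gene lists. Macrophage markers were abundant as a sum in every library, with 7 listed genes at 12403 to 34939 CPM untreated and 8779 to 15785 CPM with oxLDL. Lyz2 was the largest part in each library, while Mertk measured 9.70 to 80.9 CPM. The genes did not move together. Emr1, Fcgr1 and Itgam were lower in every oxLDL sample than in any untreated sample, and Cd68 was higher. For Csf1r, Lyz2 and Mertk the groups overlapped. Fcgr1 measured 367 to 579 CPM untreated and 15.3 to 41.8 CPM with oxLDL. Defining markers of T cells, B cells and fibroblasts summed to at most 0.410 CPM, and all 3 adipocyte markers had no count in any library, where 3 counts would be 0.200 to 0.217 CPM. Neutrophil and granule markers summed to 6.35 to 21.0 CPM untreated and 1.07 to 3.70 CPM with oxLDL. Mast cell markers summed to 2.80 to 22.2 and 23.3 to 36.4 CPM, nearly all of it Kit, with Cpa3 at no more than 0.273 CPM and Mcpt4 at no more than 0.0724 CPM. Dendritic cell markers summed to 1.502 to 3.48 CPM untreated and 1.40 to 3.26 CPM with oxLDL, megakaryocyte markers, mostly Pf4, to 12.8 to 19.7 and 12.7 to 24.7 CPM, and erythroid markers to at most 0.0668 CPM. The part of these marker levels in the results below was not tested. In bulk RNA, fewer cells of a type and less RNA per cell cannot be told apart.

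Of the 31 members, 2 rose with oxLDL: Acox3, an acyl-CoA oxidase of peroxisomes that acts on branched chains, and Acadl, the long-chain acyl-CoA dehydrogenase of mitochondria. The remaining 29 did not pass, and 0 fell. The test was edgeR's quasi-likelihood test with the sample number as a block, and a gene counted as called at a Benjamini-Hochberg adjusted p below 0.05 over all genes tested. In this fit 1.91% of all tested genes were called higher and 3.98% lower, against 6.45% and none of the members. At an unadjusted p under 0.05 in the same fit, 9 members were higher and 1 was lower, beside 13.3% and 15.7% of all tested genes. DESeq2 with the block called 4 members higher (Acadl, Acot2, Acox3 and Cpt1a) and 1 lower (Acsl5), beside 5.63% and 9.42% of the 12337 genes to which it gave an adjusted p. With limma-voom, Acadl and Acox3 were called higher and Acsl5 lower, beside 2.75% and 5.67% of all tested genes. Without the block, edgeR called 0 of 31 members and 0 of all genes, with 4 members and 1674 genes (14.7%) at an unadjusted p under 0.05. The smallest adjusted p of a member in that fit was 0.0960 (edgeR), that of Acox3.

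As a set, the members are described without a test, because they were chosen with earlier results of these data known. Their median log2 fold change, oxLDL over untreated, was 0.18, beside 0.01 over all genes tested, and 21 of 31 had a positive value (67.7%, beside 51.4% of all genes). The members' median log2 ratios in pairs 1, 2 and 3 were 0.07, 0.18 and 0.13, and those of all genes were 0.01, 0.01 and -0.01. Of the members, 14 were higher with oxLDL in all 3 pairs (45.2%, beside 26.4% of all tested genes) and 1 was lower in all 3 (3.23%, beside 27.0%). The groups did not overlap for 6 members that were higher with oxLDL (19.4%, beside 10.5%) and for 1 that was lower (3.23%, beside 10.6%). The 6 were Acox3, Acadl, Acadvl, Cpt2, Etfdh and Echs1, and the 1 was Acsl5. In 15 members the fitted change was within 1.2-fold.

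**Figure D1:**
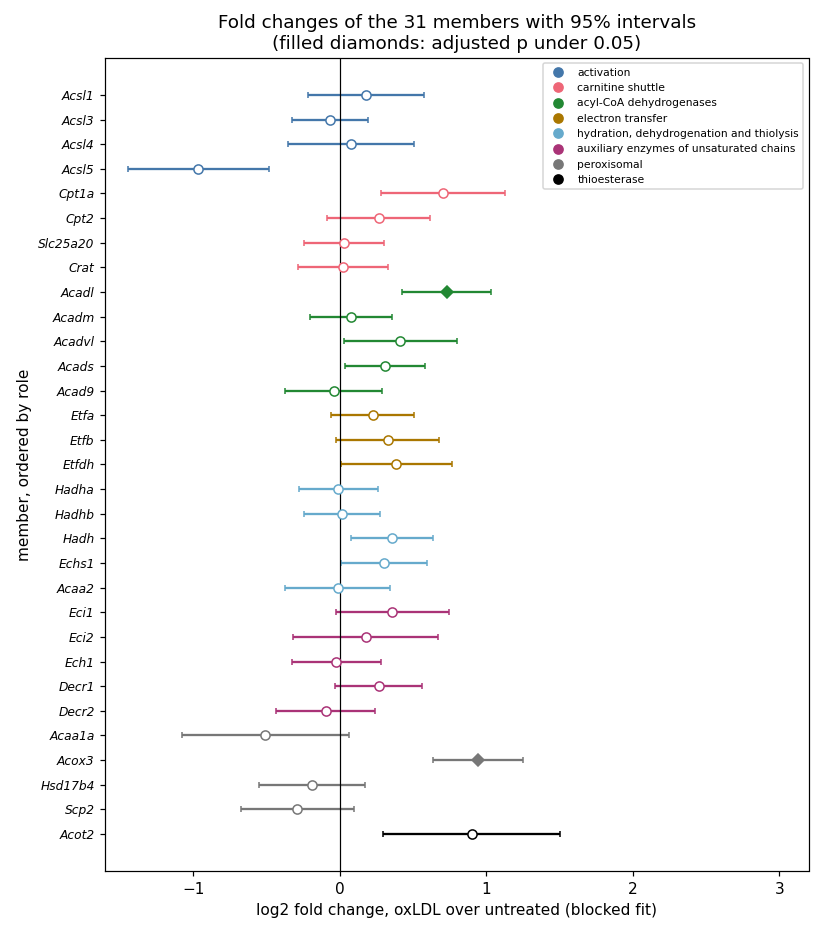
Log2 fold change, oxLDL over untreated, of each of the 31 members in the blocked edgeR fit, in the order of the pathway and coloured by role; points are estimates, bars are 95% intervals and filled diamonds mark an adjusted p below 0.05. Acox3 and Acadl are the filled points, Acsl5 has the lowest value (-0.97), and the intervals of most members reach across 0.

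The libraries numbered 3 bore on these counts. Without pair 3, edgeR's blocked fit called 5 members higher (Acadl, Acot2, Acox3, Cpt1a and Etfdh) and 3 lower (Acaa1a, Acsl5 and Scp2). The 5 were 16.1% of the members, beside 14.0% of all genes tested in that fit, and the 3 were 9.68%, beside 15.8%. That fit rests on pairs 1 and 2 alone, and pair 3 was left out after its libraries were seen to stand apart. Samples 1 and 2 correlated at r = 0.984 untreated and 0.983 with oxLDL. Adjusted p-values given without pair 3 are set against the spread among these close samples only. They are not stronger evidence than those of the fit with all pairs. Without pair 1 or without pair 2 the blocked fit called 0 members and 0 of all genes, with 4 members at an unadjusted p under 0.05 in each case, beside 14.0% of all genes without pair 1 and 14.1% without pair 2.

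Activation is the step of the acyl-CoA synthetases, of which 0 of 4 were called in edgeR's blocked fit and 1, Acsl5, had an unadjusted p under 0.05. Acsl5, an enzyme of mitochondria and endoplasmic reticulum, stood at 281, 196 and 207 CPM without oxLDL (samples 1, 2 and 3) and at 106, 108 and 133 CPM with it. Every oxLDL sample was below every untreated sample, and the ratio was widest in pair 1. Its log2 fold change was -0.97 ± 0.19 (SE), with an adjusted p of 0.0547 in edgeR with the block, 0.133 without it and 0.00806 without pair 3. Acsl5 was below the threshold in DESeq2 (adjusted p = 4.68e-04) and in limma-voom (adjusted p = 0.0433), both with the block.

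The other synthetases were not shifted in a like way. Acsl1, a synthetase of mitochondria and endoplasmic reticulum, measured 56.9, 55.1 and 783 CPM untreated and 70.2, 69.5 and 737 CPM with oxLDL. Both libraries numbered 3 were far above the other 4, and the oxLDL value was the higher one in pairs 1 and 2 and the lower one in pair 3. The log2 fold change of Acsl1 was 0.18 ± 0.15 (SE; edgeR adjusted p = 0.476), with a 95% interval of -0.22 to 0.58. Acsl4, which prefers arachidonic acid and related chains, measured 241, 203 and 271 CPM untreated and 212, 204 and 359 CPM with oxLDL, so that only oxLDL sample 3 was above the range of the untreated group. Acsl3, an enzyme of lipid droplets, had a value of -0.07 ± 0.10 on the log2 scale. Its counts were not whole in all 6 samples, because the counting divides reads that fit several genes.

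The carnitine shuttle had 0 of 4 members called in edgeR and 1 with an unadjusted p under 0.05, Cpt1a, and all 4 fitted values were positive. Cpt1a encodes the carnitine palmitoyltransferase of the outer mitochondrial membrane, the step at which malonyl-CoA controls entry. It measured 109, 116 and 82.2 CPM untreated and 194, 226 and 104 CPM with oxLDL. The level was higher with oxLDL in every pair, but oxLDL sample 3 lay within the range of the untreated samples. The log2 ratios were 0.83, 0.96 and 0.33 in pairs 1, 2 and 3. The fitted log2 fold change was 0.71 ± 0.16 (SE; edgeR adjusted p = 0.0732 blocked, 0.348 unblocked, 0.00538 without pair 3), and DESeq2 with the block gave an adjusted p of 0.0106.

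Cpt2, the palmitoyltransferase of the inner membrane, measured 16.0, 17.4 and 13.8 CPM untreated and 20.8, 18.0 and 17.8 CPM with oxLDL. The groups were parted by a narrow gap, and the value of 0.27 ± 0.13 did not pass (edgeR adjusted p = 0.264). Slc25a20, the translocase that exchanges acylcarnitine for carnitine, measured 22.9 to 29.8 CPM untreated and 24.1 to 29.7 CPM with oxLDL. Its 95% interval ran from -0.24 to 0.30 on the log2 scale. Crat, which forms acetylcarnitine, had an interval of -0.29 to 0.33.

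**Figure D2:**
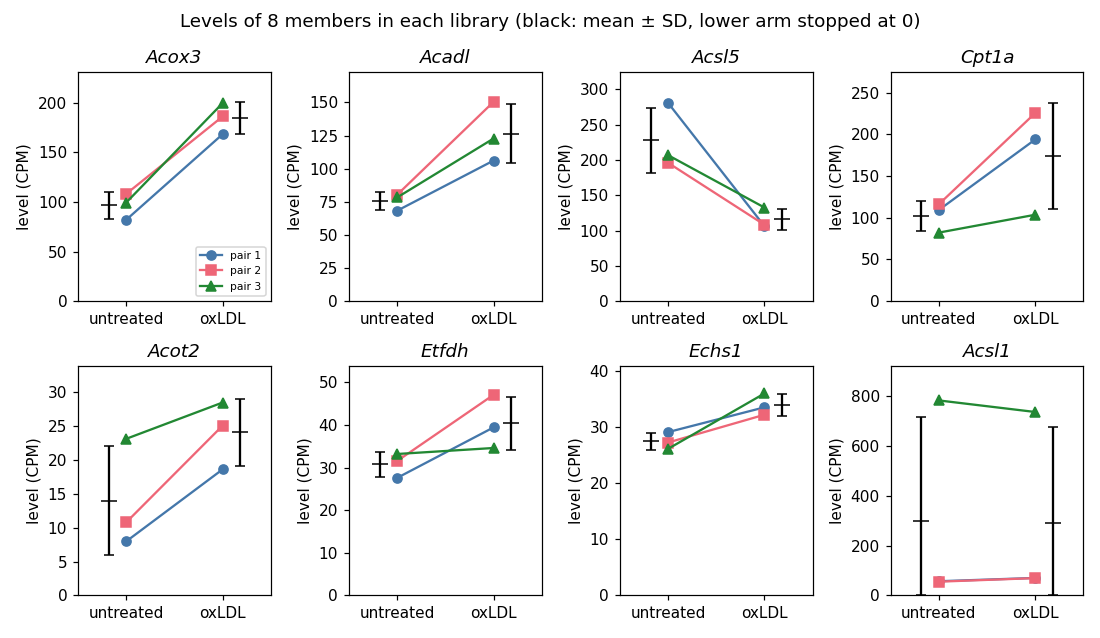
Level in CPM of 8 members in each library, with lines that join the samples of the same number and black bars for mean ± SD (n = 3 per group). Acox3 and Acadl are higher and Acsl5 is lower in every oxLDL sample than in any untreated sample, Cpt1a and Acot2 are higher within each pair with groups that overlap, and Acsl1 is set apart by the libraries numbered 3.

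Acyl-CoA dehydrogenases open each round in mitochondria and differ in the chain length they take. Of 5 members, 1 rose and 4 did not pass. Acadl stood at 68.2, 80.3 and 78.2 CPM without oxLDL (samples 1, 2 and 3) and at 106, 150.4 and 123 CPM with it. Every oxLDL sample was above every untreated sample, and the log2 ratios of 0.63, 0.90 and 0.65 were alike in the 3 pairs. The log2 fold change was 0.73 ± 0.12 (SE; edgeR adjusted p = 0.0423 blocked, 0.163 unblocked). DESeq2 and limma-voom, both with the block, gave adjusted p-values of 0.00122 and 0.0344.

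Acadvl, the enzyme for very long chains, measured 55.0, 48.0 and 40.4 CPM untreated and 57.6, 74.2 and 59.1 CPM with oxLDL. The groups did not overlap, although pair 1 had a log2 ratio of 0.07 against 0.63 and 0.55 in pairs 2 and 3. Its fitted value of 0.41 ± 0.15 did not pass (edgeR adjusted p = 0.155). Acads, for short chains, measured 23.1, 24.2 and 17.5 CPM untreated and 28.4, 29.8 and 21.9 CPM with oxLDL. Its log2 ratio was 0.30, 0.30 and 0.32 in the 3 pairs, and the fitted value of 0.31 ± 0.11 did not pass (edgeR adjusted p = 0.142). Acadm, for medium chains, had a value of 0.08 ± 0.11, and Acad9, a family member that also helps to assemble respiratory complex I, had -0.04 ± 0.13. The counts of Acad9 were not whole in all 6 samples.

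The electron transfer flavoprotein, made of Etfa and Etfb, takes electrons from these dehydrogenases and gives them to the oxidoreductase Etfdh, which reduces ubiquinone. All 3 had positive values and 0 of 3 were called in edgeR, while Etfdh had an unadjusted p under 0.05. Etfdh measured 27.6, 31.5 and 33.2 CPM untreated and 39.4, 47.1 and 34.6 CPM with oxLDL. The groups did not overlap, but pair 3 had a log2 ratio of 0.06 beside 0.51 and 0.57 in pairs 1 and 2. The log2 fold change of Etfdh was 0.39 ± 0.15 (SE; edgeR adjusted p = 0.169 blocked, 0.345 unblocked, 0.0221 without pair 3). Etfb measured 25.3, 23.6 and 15.5 CPM untreated and 26.8, 33.8 and 20.2 CPM with oxLDL, and its value of 0.33 ± 0.13 did not pass (edgeR adjusted p = 0.192). Etfa had 0.22 ± 0.11.

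The later steps of a round are those of hydratases, hydroxyacyl-CoA dehydrogenases and thiolases. Of 5 members 0 were called in edgeR's blocked fit, and Hadh and Echs1 had an unadjusted p under 0.05. Hadh, the dehydrogenase for short and medium chains, measured 28.1, 24.5 and 11.8 CPM untreated and 35.9, 32.7 and 14.5 CPM with oxLDL. Within each pair the oxLDL level was higher by a log2 ratio of 0.35, 0.41 and 0.29, a smaller distance than that between sample 3 and the other samples of a group. The fitted value of 0.36 ± 0.11 was not called, with edgeR adjusted p-values of 0.113 blocked and 0.749 unblocked. Echs1, the hydratase for short chains, measured 29.1, 27.3 and 26.1 CPM untreated and 33.6, 32.2 and 36.0 CPM with oxLDL, with groups that did not overlap (0.30 ± 0.11, edgeR adjusted p = 0.166). Acaa2, a mitochondrial thiolase, measured 20.9, 22.8 and 10.4 CPM untreated and 21.7, 25.2 and 8.68 CPM with oxLDL.

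Hadha and Hadhb encode the subunits of the mitochondrial trifunctional protein, which carries out these steps on long chains. Hadha measured 123, 114 and 76.9 CPM untreated and 118, 113 and 79.7 CPM with oxLDL. Hadhb measured 54.2, 53.3 and 29.5 CPM untreated and 55.7, 52.4 and 30.2 CPM with oxLDL. Both were lower in the libraries numbered 3 and nearly level between the groups. Their fitted log2 fold changes were -0.01 ± 0.10 and 0.02 ± 0.10, with 95% intervals of -0.28 to 0.26 and -0.24 to 0.28. The pair is shown here by sequence because the 2 genes are read away from each other out of a single stretch of DNA. In RefSeq's annotation of GRCm38.p6, the Hadhb window from 250 bases before to 50 after its start lies at chr5:30155003-30155302 on the plus strand, and the Hadha window at chr5:30154931-30155230 on the minus strand. The annotated starts are 273 bases apart, and capitals mark the 228 bases that both windows cover.
Hadhb: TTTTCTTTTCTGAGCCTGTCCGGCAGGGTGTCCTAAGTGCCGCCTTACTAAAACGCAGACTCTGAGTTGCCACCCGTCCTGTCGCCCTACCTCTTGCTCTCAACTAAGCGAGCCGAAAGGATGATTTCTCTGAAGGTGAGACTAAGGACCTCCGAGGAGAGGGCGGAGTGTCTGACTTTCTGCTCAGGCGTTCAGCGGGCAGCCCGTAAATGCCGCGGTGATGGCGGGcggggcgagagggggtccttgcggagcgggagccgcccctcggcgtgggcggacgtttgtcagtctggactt

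Auxiliary enzymes deal with the unsaturated bonds of natural fatty acids. Of 5 members 0 were called in edgeR's blocked fit, and 0 had an unadjusted p under 0.05. Eci1, a mitochondrial enoyl-CoA isomerase, measured 6.55, 6.48 and 9.70 CPM untreated and 8.54, 8.21 and 12.4 CPM with oxLDL. Its log2 ratios of 0.37, 0.33 and 0.34 were alike in the 3 pairs, and its value of 0.36 ± 0.15 did not pass (edgeR adjusted p = 0.194). Decr1, the mitochondrial dienoyl-CoA reductase, was higher with oxLDL in each pair, at 18.9, 21.2 and 17.8 CPM untreated and 21.3, 27.6 and 21.2 CPM with oxLDL. Eci2, an isomerase of mitochondria and peroxisomes, measured 22.5 to 23.1 CPM in the untreated samples and 21.9, 21.2 and 36.5 CPM in oxLDL samples 1, 2 and 3, so that oxLDL sample 3 alone was above the untreated range. Ech1, a dienoyl-CoA isomerase, and Decr2, the peroxisomal reductase, had values of -0.02 ± 0.12 and -0.10 ± 0.13.

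Peroxisomal members did not share a direction: of 4, 1 rose and 3 had negative values that did not pass. Acox3 stood at 82.0, 108 and 99.4 CPM without oxLDL (samples 1, 2 and 3) and at 168, 186 and 199.7 CPM with it. Every oxLDL sample was well above every untreated sample, with log2 ratios of 1.04, 0.78 and 1.005 in the 3 pairs. The mean went from 96.5 ± 13.3 to 185 ± 15.7 CPM (SD, n = 3). Its log2 fold change of 0.94 ± 0.12 (SE) was the highest among the members (edgeR adjusted p = 0.0316 blocked, 0.0960 unblocked), and DESeq2 and limma-voom with the block called it too.

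Acaa1a, a peroxisomal thiolase, measured 83.4, 77.2 and 61.2 CPM untreated and 46.9, 44.9 and 65.1 CPM with oxLDL. It was lower with oxLDL in pair 1 (log2 ratio -0.83) and pair 2 (-0.78) and nearly level in pair 3 (0.09). Its fitted value was -0.51 ± 0.22 (SE; edgeR adjusted p = 0.207 with all pairs and 0.00596 without pair 3). Scp2, the sterol carrier and thiolase, measured 159, 149 and 66.4 CPM untreated and 119, 106 and 68.2 CPM with oxLDL. Its ratios of -0.41, -0.49 and 0.04 had the same form, and its value was -0.29 ± 0.15 (edgeR adjusted p = 0.270, and 0.0332 without pair 3). Hsd17b4, the bifunctional hydratase and dehydrogenase of peroxisomes, had ratios of -0.39, -0.26 and 0.10 in pairs 1, 2 and 3. Whether pair 3 differed from the others was not tested, since a pair is 1 library of each group.

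Acot2, a mitochondrial thioesterase that frees fatty acids from coenzyme A, measured 7.98, 10.8 and 23.1 CPM untreated and 18.6, 25.1 and 28.5 CPM with oxLDL. It was higher with oxLDL in every pair (log2 ratio 1.197 in pair 1, 1.198 in pair 2 and 0.30 in pair 3), and untreated sample 3 was above oxLDL sample 1. The log2 fold change was 0.90 ± 0.23 (SE; edgeR adjusted p = 0.0858 with all pairs, 0.00453 without pair 3), and DESeq2 with the block gave an adjusted p of 0.0252. The counts of Acot2 were not whole in all 6 samples, and its level is uncertain. Which other genes its reads fitted was not tested.

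**Figure D3:**
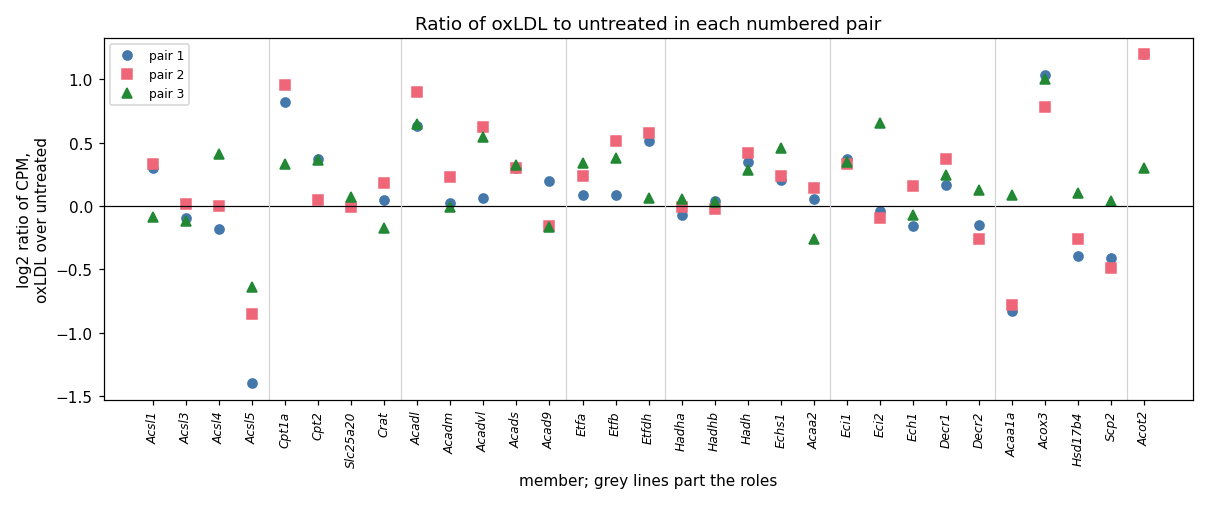
Log2 ratio of CPM, oxLDL over untreated, of each member in pairs 1, 2 and 3, with grey lines between the roles. Acox3 (0.78 to 1.04), Acadl (0.63 to 0.90) and Acads (0.30 to 0.32) have like ratios in all pairs, while Acaa1a, Scp2 and Hsd17b4 are below 0 in pairs 1 and 2 and above it in pair 3.

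Differences between the numbered samples were larger for several members than those between the groups. Sample 3 of a group was compared with the mean of samples 1 and 2 of that group. It was lower in both groups for 17 of 31 members (54.8%, beside 37.7% of all tested genes), higher in both for 7 and mixed for 7. The members' median difference was -0.28 on the log2 scale in untreated cells and -0.20 with oxLDL, beside -0.00165 and -0.01 for all genes. Acsl1 stood at 3.80 and 3.40, that is, more than 10 times the level of the other samples in either group. Hsd17b4 stood at -1.43 and -0.998, Scp2 at -1.21 and -0.73, Hadh at -1.15 and -1.25, Acaa2 at -1.06 and -1.43, and Hadhb at -0.87 and -0.84. With a single library of that number per group, these differences are given without a test.

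**Figure D4:**
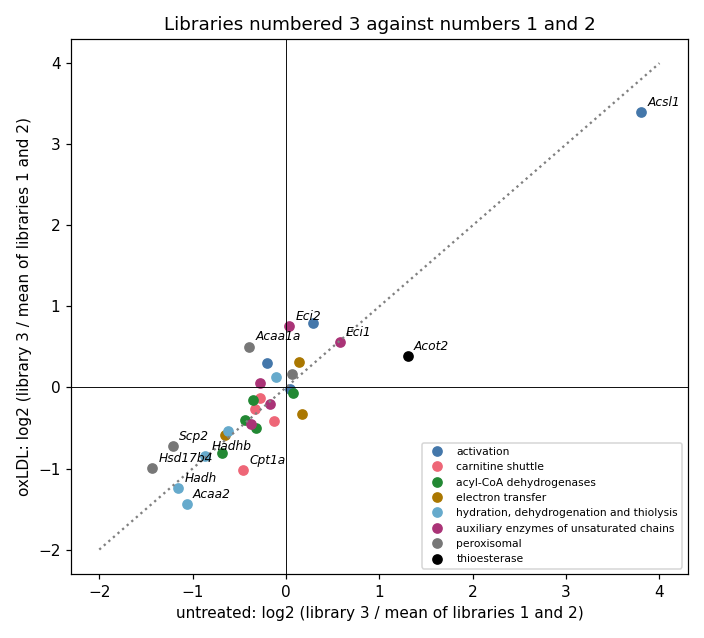
For each member, the log2 difference of library 3 from the mean of libraries 1 and 2 in untreated cells (horizontal axis) and in oxLDL-treated cells (vertical axis), with a dotted line where both are equal. Acsl1 lies far up on both axes (3.80 and 3.40), and the peroxisomal Hsd17b4 and Scp2 and the mitochondrial Hadh and Acaa2 lie below 0 on both.

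Summed over the 31 members, the level without oxLDL was 2073, 1919.7 and 2373 CPM (samples 1, 2 and 3), and with it 2030, 2126 and 2588 CPM. Without the 4 synthetases the sum was 1418, 1418 and 1048 CPM untreated and 1571, 1697 and 1300.45 CPM with oxLDL. In each pair this second sum was higher with oxLDL, while the groups overlapped because of untreated samples 1 and 2 and oxLDL sample 3. The sum of all 31 members was instead lower with oxLDL in pair 1. Among the synthetases left out, Acsl5 was lower with oxLDL in all 3 pairs, and Acsl1 was far higher in the libraries numbered 3.

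Promoters of the members that rose are shown because Acox3 and Acadl both rose and act in different organelles. That of Cpt1a, which was not called in edgeR's blocked fit, is an example of the 5 windows that hold the shortest sequence searched for. RefSeq's table for GRCm38.p6 held windows of 300 bases, from 250 before to 50 after the start, for 26 of the 31 members. They were searched on both strands for a direct repeat of the kind that PPAR and its partner RXR bind (AGGNCA, 1 base of any kind, then AGGNCA again), for the single nuclear receptor hexamer AGGTCA, and for TNAAGGTCA, the site of estrogen-related receptors. The hexamer can lie within either of the longer motifs. The direct repeat was in 0 of 26 member windows and in 0.381% of 27025 windows of all genes, and TNAAGGTCA was in 0 of 26 and in 1.26%. The hexamer was in 5 of 26 (19.2%: Acadm, Acadvl, Cpt1a, Echs1 and Scp2), beside 16.0% of all windows. A match is a description of letters, and these windows hold only a short stretch beside the start. The windows of Acox3 (chr5:35582784-35583083, plus strand) and Acadl (chr1:66863260-66863559, minus strand) had no hexamer. That of Cpt1a (chr19:3323051-3323350, plus strand) had 1, on the opposite strand and in capitals. All are printed from 5′ to 3′ on the strand of the gene.
Acox3: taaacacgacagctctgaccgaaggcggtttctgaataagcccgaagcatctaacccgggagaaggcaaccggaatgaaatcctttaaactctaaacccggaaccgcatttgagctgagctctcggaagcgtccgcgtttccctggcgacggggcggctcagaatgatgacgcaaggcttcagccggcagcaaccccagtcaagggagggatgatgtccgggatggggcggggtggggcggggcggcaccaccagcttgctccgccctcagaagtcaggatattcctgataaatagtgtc
Acadl: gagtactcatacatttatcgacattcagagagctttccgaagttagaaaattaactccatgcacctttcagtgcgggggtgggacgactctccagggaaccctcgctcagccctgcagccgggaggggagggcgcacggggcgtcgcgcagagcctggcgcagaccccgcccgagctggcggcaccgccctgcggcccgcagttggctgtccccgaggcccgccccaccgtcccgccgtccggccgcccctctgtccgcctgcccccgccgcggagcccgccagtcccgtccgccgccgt
Cpt1a: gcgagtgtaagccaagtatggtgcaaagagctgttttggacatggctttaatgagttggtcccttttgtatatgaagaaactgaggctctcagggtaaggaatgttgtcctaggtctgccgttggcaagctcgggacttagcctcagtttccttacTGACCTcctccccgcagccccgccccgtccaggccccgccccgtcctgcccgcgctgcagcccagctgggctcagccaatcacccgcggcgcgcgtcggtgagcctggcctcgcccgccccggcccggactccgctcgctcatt

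Other genes of the pathway were taken from a list of 44, of which 35 were tested. In edgeR's blocked fit 2 rose, beside 1.91% of all genes, and the list's median log2 fold change was 0.11. Hsd17b10, a mitochondrial hydroxyacyl-CoA dehydrogenase for short and branched chains, rose from 27.6, 27.3 and 91.2 CPM (samples 1, 2 and 3) to 63.8, 65.1 and 150.5 CPM (log2 fold change 1.06 ± 0.15, edgeR adjusted p = 0.0362). Acss2, which activates acetate in the cytosol and nucleus, rose from 25.3, 15.2 and 8.74 to 42.4, 35.6 and 21.3 CPM (1.08 ± 0.15, edgeR adjusted p = 0.0369). For both genes the groups overlapped and each pair moved the same way, and neither was called without the block. Without pair 3, 8 genes of the list were called higher, beside the 14.0% of all genes given above.

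Of the listed regulators, 18 of 20 were tested and 0 were called in edgeR's blocked fit, with 3 higher and 2 lower at an unadjusted p under 0.05, beside the 13.3% and 15.7% of all genes. Without pair 3, edgeR's blocked fit called 3 higher and 2 lower, beside 14.0% and 15.8%. DESeq2 with the block called 2 higher and 1 lower, beside 5.63% and 9.42%. Limma-voom called 0, beside 2.75% higher and 5.67% lower. Prkaa2, a catalytic subunit of the energy sensor AMPK, measured 2.46, 1.37 and 5.87 CPM untreated and 14.3, 15.6 and 12.7 CPM with oxLDL (2.30 ± 0.49, edgeR adjusted p = 0.0685). Esrra, an estrogen-related receptor that acts on mitochondrial genes, measured 47.6, 39.0 and 37.2 CPM untreated and 21.5, 25.2 and 27.1 CPM with oxLDL (-0.75 ± 0.17, edgeR adjusted p = 0.0715). The groups did not overlap for either gene. Lpin1, a lipin that also acts as a coactivator, had 0.50 ± 0.13 (edgeR adjusted p = 0.0878). The PPARs were picked for mention after their values were seen. Ppard, the PPAR of broad expression, measured 19.3, 18.4 and 46.6 CPM untreated and 38.9, 41.2 and 53.8 CPM with oxLDL (0.79 ± 0.22, edgeR adjusted p = 0.0980). Untreated sample 3 was above oxLDL samples 1 and 2. Pparg, the PPAR known from fat cells and lipid-laden macrophages, measured 30.5, 46.2 and 9.49 CPM untreated and 31.4, 31.4 and 3.33 CPM with oxLDL (-0.60 ± 0.31, edgeR adjusted p = 0.267). Its log2 ratio was 0.04 in pair 1, -0.55 in pair 2 and -1.44 in pair 3. Ppara and its coactivator Ppargc1a, both known for driving the pathway in liver and muscle, had 0 to 1 counts per library and were not tested.

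Targets of PPARs outside the members were tested for 8 of 10 genes. In edgeR's blocked fit 2 rose, Hilpda and Angptl4, and 0 fell, beside 1.91% and 3.98% of all genes. At an unadjusted p under 0.05, 5 were higher and 2 lower, beside 13.3% and 15.7% of all genes. The 2 lower were Txnip (-1.11 ± 0.25, edgeR adjusted p = 0.0717) and Ucp2 (-0.66 ± 0.18, edgeR adjusted p = 0.0932). DESeq2 with the block called 5 higher and 2 lower, beside 5.63% and 9.42%. Limma-voom called 2 higher and 0 lower, beside 2.75% and 5.67%. Without pair 3, edgeR called 6 higher and 0 lower, beside 14.0% and 15.8%. Hilpda, a protein of lipid droplets, measured 2.32, 3.02 and 27.9 CPM untreated and 5.79, 14.0 and 102.4 CPM with oxLDL. Angptl4, a secreted inhibitor of lipoprotein lipase, measured 0.819, 2.02 and 0.0683 CPM untreated and 5.05, 7.21 and 0.289 CPM with oxLDL, where untreated sample 3 was below the level of 3 counts. Both genes were higher in every pair with groups that overlapped. The log2 fold changes of Hilpda and Angptl4 were 1.83 ± 0.20 and 2.17 ± 0.34 (SE). Their edgeR adjusted p-values were 0.0286 and 0.0405 with the block, and 0.584 and 0.503 without it. The list's median log2 ratios were 1.28, 1.28 and 0.06 in pairs 1, 2 and 3. Enzymes of the citric acid cycle, given as other enzymes of the mitochondrial matrix, had 0 of 17 called in edgeR, DESeq2 or limma-voom with the block, and 1 higher at an unadjusted p under 0.05, Ogdh. The 3 with the smallest p-values were Ogdh, Sucla2 and Sdhb. Without pair 3, edgeR called 1 of the 17 lower, beside 15.8% of all genes. The list's median was 0.07, beside 0.18 for the members. A positive value was found for 12 of 17 (70.6%, beside 67.7% of the members), and the groups did not overlap, with oxLDL above, for 4 of 17 (23.5%, beside 19.4% of the members). The differences between the list and the members were not tested.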

How the data were processed

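RNA of 6 libraries, 3 untreated and 3 treated with oxLDL, was analysed from 2 deposited tables. The authors deposited RSEM expected counts per gene symbol, of which 10.4 to 11.1% per library were not whole (tolerance 0.005), and a TMM-scaled table whose signal equals those counts, rounded, times a constant per library. Within the same tolerance, whole reads were recovered for 100% of its values, and 99.9% or more of these, once rounded, equalled the rounded counts exactly. Per the submitters' processing notes, Bowtie2 2.1.0, RSEM 1.2.15 and edgeR were used, and the build listed is hg19, a human one, although the samples and symbols are mouse; the annotation is not given in the sources used here.

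Expected counts were rounded and tested in edgeR 4.0.16 (R 4.3.3) with TMM factors, filterByExpr (minimum count 10, total 15), the robust quasi-likelihood test and the sample number as a block. P-values were adjusted by the Benjamini-Hochberg method over all 11400 genes, with a threshold of 0.05. The standard error is the fold change divided by the root of F, and pair ratios used CPM with a pseudocount of 0.25. The same-numbered samples deviated together from their group means (r = 0.66, 0.45 and 0.70), as did untreated 2 and oxLDL 1 (0.63) and untreated 1 and oxLDL 2 (0.20). Samples numbered 3 correlated with the unlike numbers of the other group at -0.76 to -0.37. Untreated 2 was thus closer to oxLDL 1 than to oxLDL 2, and these values do not settle how samples 1 and 2 pair. Alternatives were DESeq2 1.42.0, limma-voom (limma 3.58.1), other size factors, no filter, limma on the authors' table and left-out samples. On simulated data with variation set per gene, the fit recovered 2%, 38%, 90% and 88% of genes changed by 1.5, 2, 3 and 4-fold, and 27 of its 136 calls were false; with variation set by the trend, 12%, 60%, 92% and 92% were recovered and 5 of 133 calls were false. The members, all lists and the use of the block in the leading fit were chosen with earlier results of these data known, among them that the fits with and without the block call 672 and 0 genes. Values in every library are given for members that were called, whose groups did not overlap or that were among the 12 with the smallest p, and for others by range or to complete a role. Some results of the list of other pathway genes are not reported here.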

Additional observations from a re-analysis of the deposited data

How the results depend on the processing

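The calls depended on the replicate block. With the block, 672 genes and 2 members were called, and with no replicate block 0 genes and 0 members, while the members' median log2 fold change went from 0.18 to 0.12, Acsl1 to -0.031 and Acaa2 to 0.038. DESeq2 called 1856 genes, 4 members higher and 1 lower. The 1 member called lower, Acsl5, was also called by limma-voom, without the filter on low counts, and by limma on the authors' table with a pseudocount of 1 or 0.25. Acaa2 was at 0.017 in limma-voom. Acox3 and Acadl stayed called in each of these blocked fits of all 3 pairs.

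Leaving out a numbered pair in the blocked fit, or 1 library in the fit without the block, gave 0 to 3446 genes called, 0 to 5 members higher, 0 to 3 lower and a median of 0.11 to 0.21. The 3446 came without pair 3; without untreated 3 alone, 737 genes and 2 members (Acot2 and Acox3) were called, and without oxLDL 3 alone, 31 genes and 0 members. Log2 fold changes that crossed 0 were those of Acsl1 (-2.11 to 2.39), Acsl3 (-0.25 to 0.087), Acsl4 (-0.21 to 0.26), Slc25a20 (-0.075 to 0.10), Crat (-0.061 to 0.15), Acadm (-0.10 to 0.31), Acad9 (-0.17 to 0.11), Hadha (-0.20 to 0.13), Hadhb (-0.22 to 0.23), Acaa2 (-0.25 to 0.37), Eci2 (-0.088 to 0.36), Ech1 (-0.16 to 0.11) and Hsd17b4 (-0.60 to 0.018). The cause was not tested. With 3 pairs, changes near 1.5-fold were seldom recovered on simulated data, so a member that did not pass is not shown to be unchanged.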
